A study of Mus musculus with 12 samples.

Results

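On 53 probe sets of the array, the genotypes of this study of septic mouse lung separated like a switch. The lowest of the 6 signals of one genotype was at least 3 times the highest of the 6 signals of the other, and at least 100. These 53 were found among 45037 non-control probe sets (0.118%). Of the 53, 20 were higher in lungs labelled PPTA knockout and 33 were higher in wild-type lungs. The same demand on the values was met by 67 probe sets, 0.0533% of all in the direction of the knockout label and 0.0955% in the direction of the wild type. From these 67 the 14 assigned to Tac1, Pam, the H2 genes and the Trim genes were left out. The members were thus chosen by their signals in this same genotype comparison, and their values by genotype are a description and were not tested.

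Total RNA of whole lung was hybridised to 1 Affymetrix 3′ expression array per sample, with 3 samples in each of 4 groups. The groups were PPTA knockout-labelled mice after cecal ligation and puncture (CLP, which lets gut bacteria into the abdomen and models sepsis), PPTA knockout-labelled mice after sham surgery, wild-type mice after CLP and wild-type mice after sham surgery. All were sampled 8 h after surgery at an age of 8 to 10 weeks. Balb/c is named as the strain of the wild type alone, and strain and genotype cannot be told apart. Whether replicates came from separate animals is not stated in the labels, and every p-value below rests on the spread between samples that may be technical repeats. PPTA is an older name of Tac1, which encodes the precursor of the neuropeptide substance P. The Tac1 probe set 1416783_at went against the genotype label: it read 337 to 530.3 on the knockout-labelled arrays, against 2.80 to 16.1 on the wild-type arrays. A second Tac1 probe set, 1431883_at, read 4.85 to 10.3 on the knockout-labelled and 1.26 to 16.0 on the wild-type arrays. The genotype is therefore called knockout-labelled throughout, and wild-type also follows the labels alone. Were the genotype labels exchanged, every genotype direction given here would turn; this was not tested.

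Lung markers were high on all arrays, but their summed signal was lower on every knockout-labelled than on every wild-type array. The 8 measured probe sets summed to 45303 to 48878 on the knockout-labelled and 51996 to 54283 on the wild-type arrays. Sftpc, the surfactant protein C gene of alveolar type II cells, read 8797 to 9915 on the knockout-labelled and 10420.2 to 11412 on the wild-type arrays, and Scgb1a1, the club cell secretory protein gene, read 11568 to 13433 and, in the wild type, 13616 to 14595. The summed signal of heart muscle markers differed between the genotypes and, in knockout-labelled lungs alone, between the surgeries. The summed signal of Actc1, Myh6 and Myl7 was 2531 to 4719 in knockout-labelled CLP and 6164 to 9253 in knockout-labelled sham, whereas wild-type CLP had 1880.4 to 2361 and wild-type sham 1831 to 2227. The 6 measured probe sets of B and plasma cell markers summed to 781 to 1302.0 and 1333 to 1648 in knockout-labelled CLP and sham, and to 807 to 1050.3 and 837 to 1048 in wild-type CLP and sham. These 6 read only 2 genes, Ighm among them. Igha 1421653_a_at, outside this sum, read 2020 to 6740 on the knockout-labelled and 468 to 926 on the wild-type arrays. All measured immunoglobulin probe sets are counted below. What part tissue composition has in the values below was not tested, and in whole tissue fewer cells of a type and less RNA per cell cannot be told apart. Array 3 of knockout-labelled sham stood apart, with correlations of 0.937 and 0.939 to the other arrays of its group, which correlated at 0.981 with each other. Correlations within the wild-type groups were 0.983 to 0.985.

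A probe set reads only the stretch of transcript that its short probes match, usually near the 3′ end. Most genes are read by several probe sets, and these can read different 3′ ends or splice forms of a gene. A switch-like signal on a probe set is thus a statement about that stretch, and the other probe sets of the gene are given beside it below. The deposited unit is a linear signal with no detection call, so a low signal cannot be split into absent and present. The array medians, from 31.1 to 38.4, serve as a yardstick here: 22 of the 53 members were at or below the array median on all 6 arrays of their low genotype (8 of the 20 higher in knockout-labelled lungs and 14 of the 33 higher in wild-type lungs), 17 were above it on all 6, and 14 on some.

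**Figure D1:**
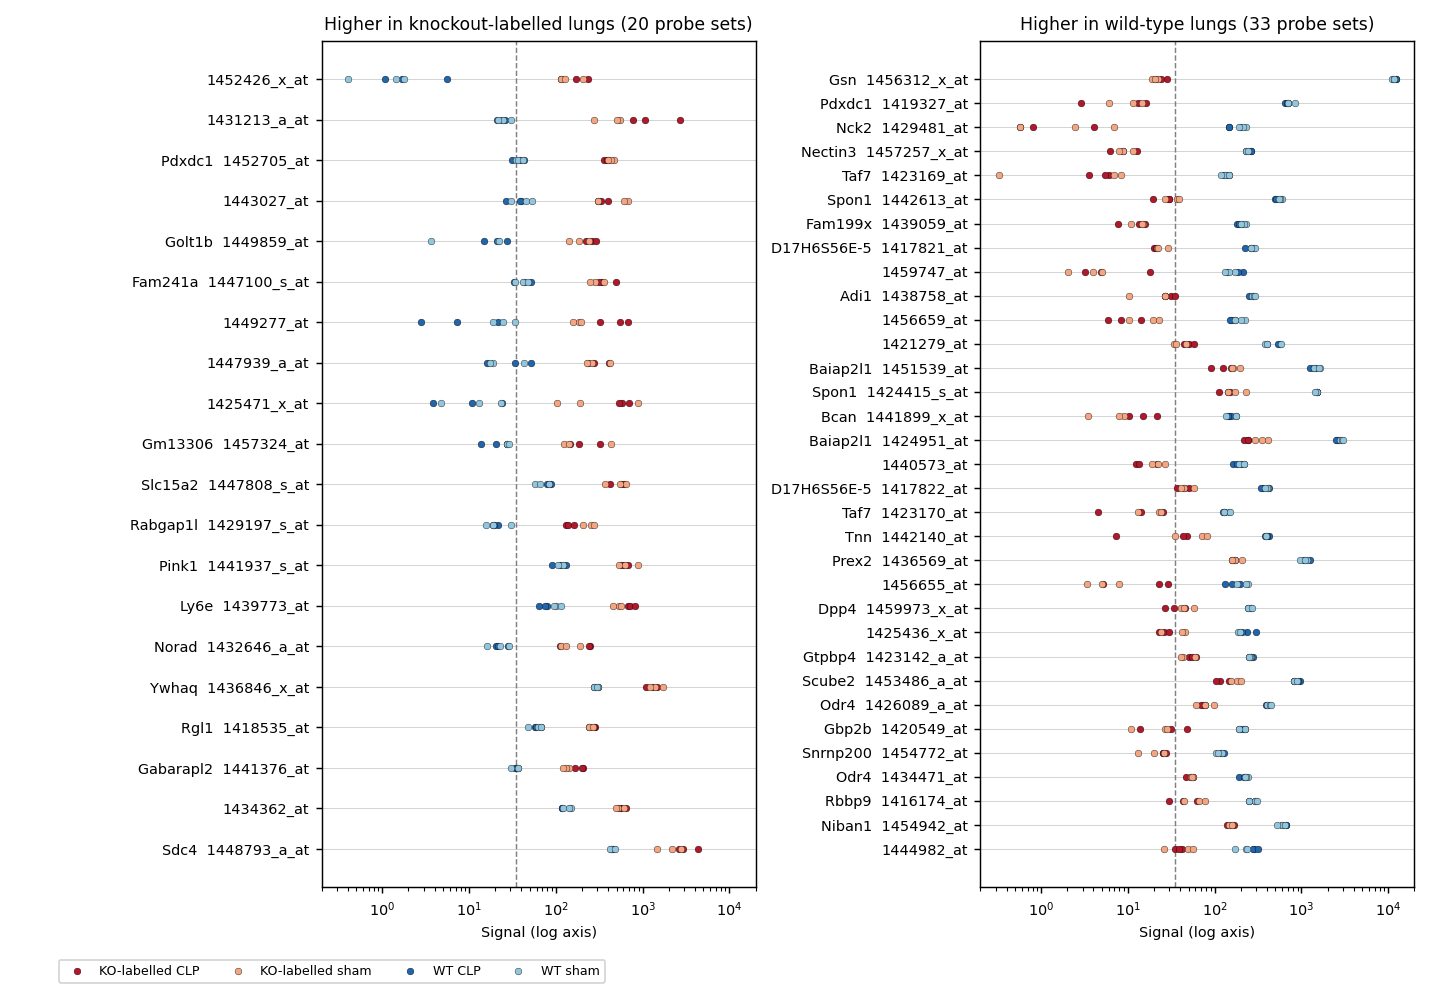
Signal of every member on every array, on a log axis, with 1 row per probe set. Points are single arrays coloured by group, the dashed line marks the median of the array medians (34.7), and rows run from the widest gap between genotypes at the top to the narrowest at the bottom. Gsn 1456312_x_at, at the top right, has knockout-labelled arrays at 19.1 to 28.0 and wild-type arrays at 10998 to 12167.

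The platform annotation gives 39 of the 53 probe sets 1 gene symbol, for 33 genes. It gives 3 several symbols and 11 none, and these 14 are named by probe set only. Of the genes, 13 were higher in knockout-labelled lungs and 21 in wild-type lungs by their member probe sets, and Pdxdc1 is counted in both. Wherever a member gene is called higher in a genotype below, this rests on its member probe sets alone. Probe sets with the suffix _x_at or _s_at, which marks probes that match several transcripts, made up 24.5% of the members. They made up 10.1% of all probe sets and 15.6% of the 14772 with a signal of at least 100 on 6 arrays or more. By direction the share was 35.0% among the 20 higher in knockout-labelled lungs and 18.2% among the 33 higher in wild-type lungs.

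Promoter sequence is shown for Odr4, Baiap2l1 and Gbp2b. For Odr4 and Baiap2l1 both probe sets on the array belong to the members and lie on the same side, and Gbp2b is the member whose family shows the other direction. The sequences are RefSeq's for GRCm38.p6, the mouse reference assembly, and not those of the mice studied. They run 5′ to 3′ on the gene's strand, from 250 bases before to 50 bases after the annotated start. Odr4 lies at chr1:150393031-150393330 on the minus strand, Baiap2l1 at chr5:144358063-144358362 on the minus strand and Gbp2b at chr3:142594597-142594896 on the plus strand. Capitals mark matches, on either strand, to a GC box searched as GGGCGG, to a CCAAT box, whose letters are its name, or to an interferon-stimulated response element (ISRE), searched as GAAA, any 2 bases and GAAA again. The search also took in a TATA box with the letters TATAAA and a STAT site called GAS, with TTC and GAA around any 3 bases.
Odr4: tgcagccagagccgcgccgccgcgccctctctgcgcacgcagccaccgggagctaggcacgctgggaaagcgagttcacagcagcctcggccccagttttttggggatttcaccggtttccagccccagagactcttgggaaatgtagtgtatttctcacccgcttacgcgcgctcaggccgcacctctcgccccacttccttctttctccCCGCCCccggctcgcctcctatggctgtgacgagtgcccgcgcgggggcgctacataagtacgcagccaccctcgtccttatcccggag
Baiap2l1: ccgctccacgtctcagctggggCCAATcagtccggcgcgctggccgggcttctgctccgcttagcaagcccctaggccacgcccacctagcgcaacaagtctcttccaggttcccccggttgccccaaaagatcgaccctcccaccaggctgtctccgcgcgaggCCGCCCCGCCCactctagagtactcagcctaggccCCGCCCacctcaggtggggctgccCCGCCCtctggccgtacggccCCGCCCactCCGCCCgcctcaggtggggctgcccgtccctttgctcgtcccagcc
Gbp2b: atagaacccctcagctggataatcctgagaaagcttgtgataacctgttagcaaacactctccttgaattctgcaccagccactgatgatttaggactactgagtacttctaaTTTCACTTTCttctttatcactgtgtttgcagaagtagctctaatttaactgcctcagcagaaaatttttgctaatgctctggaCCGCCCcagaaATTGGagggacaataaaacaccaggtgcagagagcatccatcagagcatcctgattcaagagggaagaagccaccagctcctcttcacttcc
Odr4 held 1 GC box, Baiap2l1 held 6 GC boxes (a pair of them overlapping) and 1 CCAAT box, and Gbp2b held 1 ISRE, 1 GC box and 1 CCAAT box. A promoter entry was found for 27 of the 33 genes, in 34 windows of 300 bases. A GC box was in 24 of the 34 windows (70.6%), against 35.7% of all 32851 mouse promoter windows, and a CCAAT box in 15 (44.1%), against 37.4%. The ISRE was in 3 (8.82%), those of Dpp4, Gbp2b and D17H6S56E-5, against 3.44%. A TATA box was in 2 (5.88%), against 13.6%, and a GAS in 1 (2.94%), against 8.30%. Members had to be bright in a genotype, whereas the mouse windows were not chosen by signal. Some genes, among them Gsn, Gm13306 and Odr4, gave several windows, and those of Odr4 overlap. The windows are thus not independent, and the shares were not tested and are a description. A match is a match of letters and not a site shown to be used.

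The members are arranged here by what their products are known to do, an arrangement made by hand with the values known and tested for no enrichment. Of the genes higher in wild-type lungs, Gsn, Baiap2l1, Nck2 and Nectin3 act in the actin skeleton or in cell contact. Gsn encodes gelsolin, which severs and caps actin filaments and is abundant in lung. Its probe set 1456312_x_at read 28.0, 21.0 and 23.9 in knockout-labelled CLP and 19.1, 22.5 and 20.8 in knockout-labelled sham. The wild-type arrays read 11426, 12126 and 12167 after CLP and 10998, 11558 and 11756 after sham. The lowest wild-type signal was 392 times the highest knockout-labelled one, the widest gap of the 53, and no surgery group of one genotype came near the other genotype.
Baiap2l1 encodes an adaptor that bends membranes and binds actin. Its probe set 1424951_at read 245, 217 and 244 in knockout-labelled CLP and 412, 355 and 295 in knockout-labelled sham, compared with 2688, 2576 and 2488 in wild-type CLP and 2801, 2896 and 2995 in wild-type sham. The second, 1451539_at, read 91.2 to 197 on the knockout-labelled and 1240.5 to 1631 on the wild-type arrays. On both probe sets the knockout-labelled signal stayed above the array median on all 6 arrays, unlike that of Gsn 1456312_x_at.
Nck2 encodes an adaptor that links receptor tyrosine kinases to actin. Its probe set 1429481_at read 0.568 to 6.88 (median 1.63) on the knockout-labelled and 145 to 231 (median 192) on the wild-type arrays. Nectin3 encodes an adhesion molecule of cell junctions, and its probe set 1457257_x_at read 6.18 to 12.8 (median 8.79), against 228 to 262 (median 241) in the wild type. Both were near the floor on every knockout-labelled array, whichever the surgery.

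Spon1, Scube2, Tnn and Bcan encode secreted or matrix proteins. Spon1 encodes F-spondin, a matrix protein. Its probe set 1442613_at read 29.6, 29.5 and 19.7 in knockout-labelled CLP and 26.8, 36.5 and 39.2 in knockout-labelled sham, compared with 499, 586 and 507 in wild-type CLP and 594, 561 and 553 in wild-type sham. The other Spon1 member, 1424415_s_at, read 113 to 228 on the knockout-labelled and 1435 to 1519.7 on the wild-type arrays. The groups lay far apart on both probe sets, and the wild-type arrays of 1424415_s_at were nearly level, with an SD of 0.03 on the log2 scale.
Scube2, whose product helps to release lipid-modified Hedgehog ligands, read 103 to 201 on the knockout-labelled and 810.5 to 952 on the wild-type arrays. Tnn, a tenascin, read 7.34 to 80.9 and, in the wild type, 383 to 421. Bcan, the proteoglycan brevican known from brain matrix, read 3.43 to 21.5 and, in the wild type, 135 to 178. Tnn had the widest knockout-labelled spread of the 3, with an SD of 1.06 on the log2 scale against 0.05 in the wild type.
Dpp4, a membrane peptidase that trims peptides including substance P, read 27.0 to 57.1 on the knockout-labelled and 243 to 272 on the wild-type arrays of 1459973_x_at. Prex2, an activator of Rac GTPases, read 157 to 206 and, in the wild type, 955 to 1263.

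Taf7, Gtpbp4 and Snrnp200 act in transcription, ribosome assembly and splicing. Taf7 encodes a subunit of the general transcription factor TFIID. Its probe set 1423169_at read 0.329 to 8.29 on the knockout-labelled and 119 to 145 on the wild-type arrays, and 1423170_at read 4.56 to 25.3 and, in the wild type, 126 to 148. Both Taf7 probe sets were below the array median on all knockout-labelled arrays.
Gtpbp4, a GTPase of ribosome assembly, read 41.1 to 60.7 on the knockout-labelled and 247 to 276 on the wild-type arrays. Snrnp200, the spliceosome's helicase, read 13.1 to 27.7 and, in the wild type, 104 to 128. For both genes the member probe set is not the brightest of the gene.
The rest of the wild-type side has mixed roles. Pdxdc1 encodes a protein related to pyridoxal phosphate-dependent decarboxylases, and its probe set 1419327_at read 2.87 to 16.3 (median 12.2) on the knockout-labelled and 639 to 832 (median 693) on the wild-type arrays. Odr4, whose relative in Caenorhabditis elegans helps odorant receptors reach the cilia, read 60.7 to 97.0 on the knockout-labelled and 388 to 448 on the wild-type arrays of 1426089_a_at. Its second probe set, 1434471_at, read 46.4 to 56.0 and, in the wild type, 191 to 242.
Adi1, a dioxygenase of methionine salvage, read 10.3 to 35.1 on the knockout-labelled and 248 to 288 on the wild-type arrays. Rbbp9, a serine hydrolase, read 30.0 to 76.7 and, in the wild type, 249 to 310.2. Niban1, a gene known from cell stress, read 140.4 to 169 and, in the wild type, 518 to 663.
Fam199x, on the X chromosome, read 7.76 to 15.6 on the knockout-labelled and 183 to 232 on the wild-type arrays. D17H6S56E-5, a gene of the class III region of the major histocompatibility complex, read 20.1 to 29.2 and, in the wild type, 225 to 291 on 1417821_at, and 36.5 to 58.0 and, in the wild type, 346 to 418 on 1417822_at. Gbp2b completes the 21 genes and is described with its family below. Scube2, Odr4, Prex2, Gtpbp4, Snrnp200 and the probe sets without a single gene name, other than those beside the threshold, fall outside the naming rule and were chosen after their values were seen, so that the account of the members does not stop at the rule.

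On the side of the knockout label the gaps were narrower. The ratio of the lowest high signal to the highest low signal had a median of 4.25 (3.09 to 20.8) over these 20, against 6.03 (3.01 to 392) over the 33 higher in wild-type lungs. A ratio of at least 10 was reached by 1 of 20 and by 7 of 33.
Ly6e encodes a lipid-anchored surface protein that interferon induces. Its probe set 1439773_at read 671, 716 and 819 in knockout-labelled CLP and 534, 568 and 449.9 in knockout-labelled sham, compared with 63.1, 79.6 and 75.8 in wild-type CLP and 99.1, 95.8 and 115 in wild-type sham. Within each genotype the arrays of the surgeries did not overlap, and their order was opposite in the genotypes.
Sdc4 encodes syndecan-4, a heparan sulfate proteoglycan of the cell surface. Its probe set 1448793_a_at, with one of the highest signals here, read 2624, 4333 and 2927 in knockout-labelled CLP and 2207, 2768 and 1474 in knockout-labelled sham, compared with 470.3, 439.9 and 435 in wild-type CLP and 437, 416 and 477 in wild-type sham. The knockout-labelled arrays overlapped between the surgeries, and the wild-type arrays lay within 416 to 477.
Ywhaq encodes 14-3-3 theta, an adaptor for phosphorylated proteins. Its probe set 1436846_x_at read 1095 to 1715 on the knockout-labelled and 271 to 308 on the wild-type arrays.

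Of the remaining genes higher in knockout-labelled lungs, 5 act in autophagy, membrane traffic or transport. Pink1, the kinase that marks damaged mitochondria for removal, read 533 to 876 on the knockout-labelled and 90.9 to 129.8 on the wild-type arrays. Gabarapl2, a ubiquitin-like protein of the autophagosome membrane, read 122 to 205 and, in the wild type, 30.8 to 37.0. The wild-type signal of Gabarapl2 lay about at the array median, and that of Pink1 lay above it on every array.
Golt1b, a protein of Golgi transport, read 140.3 to 292 on the knockout-labelled and 3.66 to 27.5 on the wild-type arrays. Rabgap1l, which stimulates Rab GTPases to hydrolyse GTP, read 129 to 276 and, in the wild type, 15.6 to 30.8. Slc15a2, a peptide transporter of the apical membrane of lung and kidney epithelium, read 373 to 638 and, in the wild type, 57.8 to 88.6.
Rgl1, an activator of Ral GTPases, read 239.9 to 286 on the knockout-labelled and 48.0 to 67.8 on the wild-type arrays. Norad, a long noncoding RNA that binds Pumilio proteins, read 111 to 245 and, in the wild type, 16.0 to 28.6. Fam241a read 249 to 498 and, in the wild type, 33.1 to 51.9.
Gm13306, a gene of chromosome 4 with no role given here, read 185, 145 and 321 in knockout-labelled CLP and 125, 143 and 427 in knockout-labelled sham, compared with 13.9 to 29.0 on the wild-type arrays. The highest value came from array 3 of knockout-labelled sham, the array that stood apart. The gene lies among the repeated Ccl21 and Ccl27 chemokine genes, and signal from near copies cannot be told apart from its own.

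The 14 members without a single gene name include the widest gap on the side of the knockout label. The unnamed probe set 1452426_x_at read 115, 169 and 233 in knockout-labelled CLP and 115, 129 and 207 in knockout-labelled sham, compared with 0.406 to 5.54 on the wild-type arrays. The unnamed 1431213_a_at read 1065, 772 and 2673 in knockout-labelled CLP and 553, 273 and 501 in knockout-labelled sham, compared with 21.0 to 30.1 on the wild-type arrays. Of the knockout-labelled arrays, those after CLP were all above those after sham. The unnamed 1443027_at read 333, 303 and 402 in knockout-labelled CLP and 676, 603 and 303 in knockout-labelled sham, compared with 26.6 to 52.6 on the wild-type arrays. The probe set 1447939_a_at, with several predicted genes, read 230.3 to 419 on the knockout-labelled and 16.1 to 51.5 on the wild-type arrays. The surgeries overlapped on both.
The unnamed 1425471_x_at was the most uneven on its high side, with 579, 529 and 696 in knockout-labelled CLP and 104, 189.6 and 895 in knockout-labelled sham, compared with 3.85 to 24.1 in the wild type. Array 3 of knockout-labelled sham again gave its highest value. On the wild-type side 7 members have no single name, and their low genotype read 2.04 to 58.3 and their high genotype 130.1 to 584.

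The threshold of 3 falls in a continuous run of values. Just inside it on the side of the knockout label were Sdc4 (3.09), the unnamed 1434362_at (3.28) and Gabarapl2 (3.30), and just outside Uri1 (2.87), the unnamed 1435872_at (2.76) and Oasl2 (2.75). Inside it on the wild-type side were the unnamed 1444982_at (3.01), Niban1 (3.07) and Rbbp9 (3.24), and just outside Tmem41b (2.99), Lsm12 (2.90) and Gpbp1l1 (2.81). For scale, the same rule with CLP set against sham found 11 probe sets higher after CLP and 0 higher after sham.

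Of the 33 genes 28 are read by at least 2 probe sets. In 3 of them, Baiap2l1, D17H6S56E-5 and Odr4, both probe sets are members. The other 25 genes have 52 probe sets that are no members, and these by definition fell short of the rule. Of these, 48 in 23 genes exceeded the array median on 3 or more of 12 arrays and count as measured. Differences here are knockout-labelled minus wild-type means of log2(signal + 3.47), which understates the differences of low signals. Of the 48, 28 differed by under 0.5 and 2 came within 1 of the member probe set (Slc15a2 1424730_a_at and Niban1 1422567_at). On 16 probe sets, in 15 genes, the difference had the member's sign and the arrays of the genotypes did not overlap. The arrays overlapped on 20 of the same sign and 10 of the opposite sign, and 2 had the opposite sign with no overlap. Among all 24574 measured probe sets 4.38% were without overlap and higher in knockout-labelled lungs and 5.39% without overlap and higher in wild-type lungs, 9.77% together. The other probe sets share the contrast that chose the members, so nothing is read from these counts. In 7 genes every other measured probe set overlapped.

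**Figure D2:**
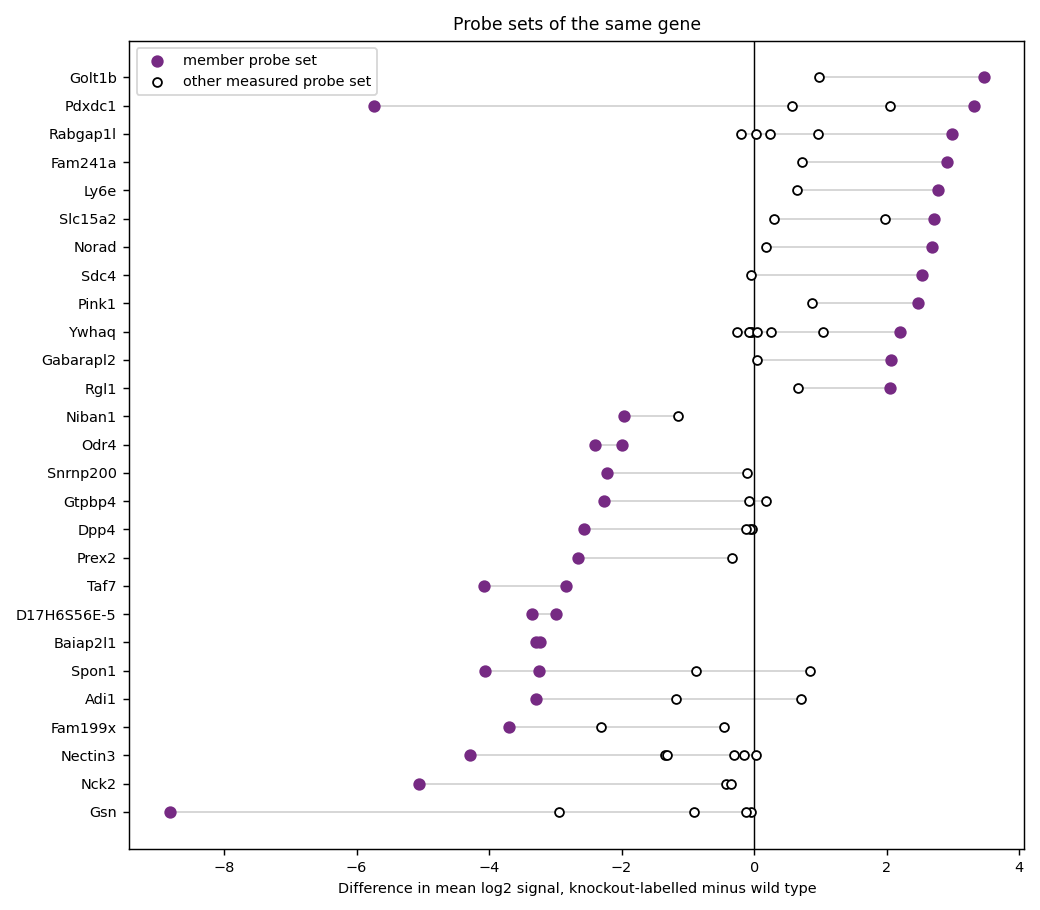
Difference in mean log2(signal + 3.47), knockout-labelled minus wild type, for the 27 genes with at least 2 measured probe sets. Filled points are members and open points the gene's other measured probe sets. Most open points lie near 0, while Gsn runs from -8.82 to -0.04 and Pdxdc1 from -5.74 to 3.31.

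Gsn was the widest case. Against -8.82 on the member, 1415812_at differed by -0.04, 1436991_x_at by -0.13 and 1437171_x_at by -0.91. The signal of 1415812_at was 6869.9 to 8417 on the knockout-labelled and 7548 to 8119 on the wild-type arrays, with overlap. On 1437171_x_at it was 3851 to 5749.9 on the knockout-labelled and 8237 to 9198 on the wild-type arrays, with none. These 3 probe sets were thus bright in both genotypes, while the member was near the floor in one. The remaining measured Gsn probe set, 1456569_x_at, was dim (0.304 to 55.4 on the knockout-labelled and 30.8 to 210.4 on the wild-type arrays).
Pdxdc1 had member probe sets on both sides. While 1419327_at was higher in the wild type, 1452705_at read 397, 361 and 384 in knockout-labelled CLP and 471, 428 and 397 in knockout-labelled sham, compared with 31.4 to 43.5 on the wild-type arrays. Of the other probe sets, 1428200_a_at lay on the same side as 1452705_at, at 65.9 to 87.5 on the knockout-labelled and 8.99 to 23.6 on the wild-type arrays. The last, 1436372_a_at, overlapped at 130.4 to 191 on the knockout-labelled and 82.5 to 144 on the wild-type arrays.
For Nck2, against -5.05 on the member, 1416796_at differed by -0.42 without overlap (199 to 267 on the knockout-labelled and 291 to 356 on the wild-type arrays) and 1416797_at by -0.34 with overlap. Nectin3 had 5 other measured probe sets, 2 without overlap on the member's side (-1.35 and -1.32) and 3 overlapping (-0.30, -0.15 and 0.02). Its brightest, 1423331_a_at, read 552 to 1337 on the knockout-labelled and 1130.0 to 1304 on the wild-type arrays.
Spon1 had another probe set without overlap on the members' side, 1451342_at, with 673 to 962 on the knockout-labelled and 1409 to 1543 on the wild-type arrays (-0.87). The dim 1441226_at lay on the other side (0.84) with overlap. All 3 bright Spon1 probe sets were thus lower in knockout-labelled lungs, by unequal amounts.
Adi1 was split, with 1438759_x_at at -1.19 without overlap and 1449076_x_at at 0.71 with overlap. Fam199x had 1440046_at at -2.31 without overlap (0.903 to 22.4 on the knockout-labelled and 66.4 to 85.9 on the wild-type arrays) and 1434294_at at -0.45 with overlap. Dpp4 had 3 other probe sets at -0.03, -0.07 and -0.13, all overlapping, and its brightest read 428 to 759 on the knockout-labelled and 587 to 630.2 on the wild-type arrays. Neither Gtpbp4 (0.18 and -0.09), Snrnp200 (-0.11) nor Prex2 (-0.34) had another measured probe set without overlap.

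The genes higher in knockout-labelled lungs gave the same mixture. Slc15a2 1424730_a_at came close to the member, with 353 to 585 on the knockout-labelled and 107 to 135 on the wild-type arrays (1.97), while 1417600_at overlapped (0.30). Pink1 1451148_at read 621 to 888 on the knockout-labelled and 350.3 to 398 on the wild-type arrays (0.87). Ly6e 1453304_s_at, much brighter than the member, read 3872 to 4329 and, in the wild type, 2399 to 2839.9 (0.65).
Golt1b (0.98), Fam241a (0.72) and Rgl1 (0.66) each had 1 other probe set, on the member's side and without overlap. Sdc4 (-0.05), Gabarapl2 (0.04) and Norad (0.17) each had 1 other measured probe set, with overlap. For Norad this was the bright one, with 2534 to 3007 on the knockout-labelled and 2379 to 2621 on the wild-type arrays, and for Sdc4 it was dim, with 24.5 to 89.6 and, in the wild type, 28.0 to 54.7.
Ywhaq was covered by 7 other probe sets. Of these 1437608_x_at lay on the member's side (1046 to 1631 on the knockout-labelled and 543 to 673 on the wild-type arrays, 1.05) and 1432842_s_at on the other (2118 to 2668 and, in the wild type, 2705 to 3159.5, -0.25), both without overlap, and 5 overlapped, between -0.07 and 0.25. Rabgap1l had 1429196_at without overlap (0.96) and 3 overlapping probe sets between -0.21 and 0.24.
In 4 of the 6 genes with at least 2 member probe sets, all measured probe sets were members on 1 side: Baiap2l1, D17H6S56E-5, Odr4 and Taf7. Gbp2b, Gm13306, Rbbp9, Scube2 and Tnn are read by a single probe set.

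Among the singly named members, by symbol stem only Fam199x and Fam241a are alike, and that shared stem is a placeholder for genes named by sequence and not a family. Of the members with several symbols, 1425436_x_at is annotated to lectin-like receptor genes and 1449277_at to a chemokine gene with predicted copies, and neither was counted in a family. The family that carries a contrast is that of the guanylate binding proteins, interferon-induced GTPases that attack intracellular microbes. Their induction is known to vary between inbred mouse strains, that of Gbp2b (formerly Gbp1) in particular. Gbp2b 1420549_at read 13.7, 31.1 and 47.7 in knockout-labelled CLP and 26.8, 28.0 and 10.7 in knockout-labelled sham, compared with 223, 196 and 218 in wild-type CLP and 222, 191 and 188 in wild-type sham. It was the only one of 9 measured Gbp probe sets that was lower in knockout-labelled lungs.
The other 8 were higher on average in knockout-labelled lungs, 4 of them without overlap. Gbp2 1418240_at read 1096, 1553 and 2713 in knockout-labelled CLP and 1938, 895 and 626 in knockout-labelled sham, compared with 312 to 349 in wild-type CLP and 293 to 313 in wild-type sham. Gbp7 1434380_at read 499 to 2036 on the knockout-labelled and 309.8 to 372 on the wild-type arrays. Differences ran from 1.03 for Gbp8 1418776_at, with overlap, to 2.11 for Gbp2 1435906_x_at, against -2.94 for Gbp2b.
In RefSeq's order Gbp2b lies between Gbp3 and Gbp2. Gbp3 1418392_a_at read 151 to 776 on the knockout-labelled and 108 to 200.3 on the wild-type arrays, with overlap. The neighbours of Gbp2b on the chromosome thus lay on the other side. Knockout-labelled signals of these genes were also far more uneven, with array 1 of sham the highest of its group in all 8.

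**Figure D3:**
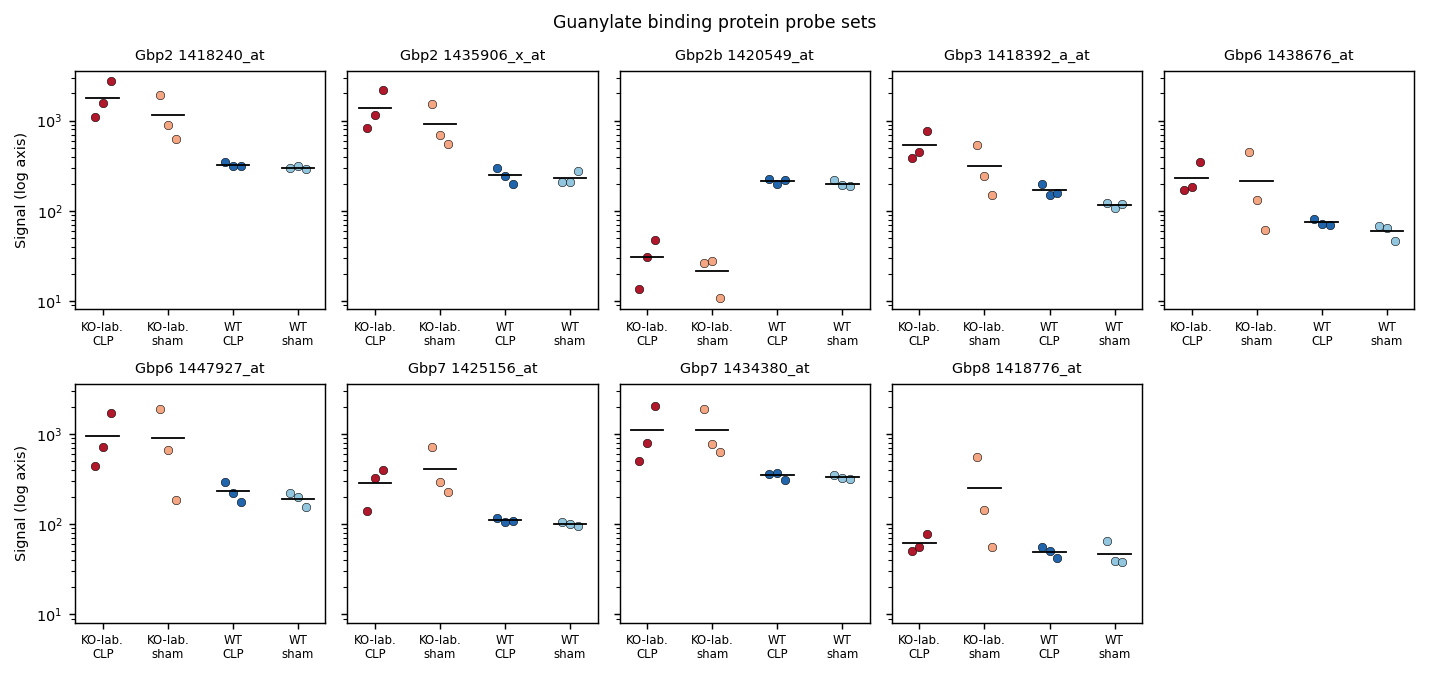
Signal of the 9 measured guanylate binding protein probe sets on every array, on a log axis, by group (3 arrays each, with the line at the mean). Gbp2b is the only panel in which the knockout-labelled arrays, 10.7 to 47.7, lie below the wild-type arrays, 188 to 223.

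Lists of genes that might be thought to go with such a switch held few members. Of genes known to vary in transcript among inbred strains, 20 probe sets of 12 genes were measured, 7 without overlap higher in knockout-labelled and 2 higher in wild-type lungs, and Gbp2b was the only member. Ctse, the protease cathepsin E, had its own disagreement: 1427797_s_at read 267 to 499 on the knockout-labelled and 72.9 to 110.1 on the wild-type arrays, and 1418989_at read 49.1 to 185 and, in the wild type, 221 to 479.
Beside the counts without overlap on these lists stand the shares over all measured probe sets, 4.38% higher in knockout-labelled and 5.39% higher in wild-type lungs. Of 11 measured, singly named probe sets of killer cell lectin-like receptors, 6 were without overlap and higher in knockout-labelled lungs and 2 higher in wild-type lungs, with no member among them. The 11 read 8 genes. Several of the 6 read the same gene, Klrb1b, and the rest read Klra16 and Klrk1. The member 1425436_x_at, which the annotation gives to more than 1 such receptor gene, stands outside the list and read 22.9 to 45.8 on the knockout-labelled and 188 to 299 on the wild-type arrays. Of 23 for immunoglobulins, 10 were without overlap and higher in knockout-labelled lungs and 0 higher in wild-type lungs, with no member. Here too several of the 10 read the same gene, as for Igha. Of 6 for the p200 interferon-inducible genes, 2 were without overlap and higher in knockout-labelled lungs, with no member.
Sex-linked genes gave no member among 7 measured probe sets. Eif2s3y, on the Y chromosome, read 288 to 382 on the knockout-labelled and 298 to 394 on the wild-type arrays, and Xist 1436936_s_at read 35.5 to 59.0 and, in the wild type, 42.3 to 53.0. The ranges of the genotypes overlapped on both. Uty, also on the Y chromosome, had 1 of 4 measured probe sets without overlap: 1426598_at read 75.8 to 174 on the knockout-labelled and 43.4 to 74.0 on the wild-type arrays (0.65). On 1422247_a_at the difference was 0.82 with overlap. The arrays read 0 probe sets with endogenous retroviral names. The remaining marker lists also held no member: of 8 measured lung probe sets 0 were without overlap and higher in knockout-labelled lungs and 4 higher in wild-type lungs (median difference -0.16), and of 3 for heart muscle 1 was higher in knockout-labelled lungs. Markers of T cells, red cells, hepatocytes, skeletal muscle and pancreas had 7 measured probe sets, all overlapping, and thymus markers had 0.

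The 33 genes are spread over 14 autosomes and the X chromosome, by NCBI's annotation. Chromosome 1 held 7 of them (21.2%), against 5.86% of all 18032 singly named genes on the array, and chromosome 2 held 6 (18.2%), against 7.76%. Chromosomes 3 and 16 held 3 each (9.09%), against 5.06% and 3.29% of the array's genes. Chromosomes 9, 10, 11, 14, 19 and Y held 0. With 33 genes, these shares rest on few counts and were not tested.
Neighbours on chromosome 1 did not all share a direction. Between Odr4 and Niban1, both higher in wild-type lungs, lie 8 protein-coding genes in RefSeq's order. Between Niban1 and Rgl1, which was higher in knockout-labelled lungs, lie 4, and between Tnn (higher in wild type) and Rabgap1l (higher in knockout-labelled) lie 2. Pam, left out by its symbol and higher in knockout-labelled lungs, lies on the same chromosome with 212 protein-coding genes between it and Odr4.
On chromosome 17 D17H6S56E-5 lies between the left-out H2 genes, with 34 protein-coding genes back to H2-Eb1 and 28 on to H2-D1. Scube2 and Spon1, both higher in wild-type lungs, have 26 between them on chromosome 7. On chromosome 6, where Tac1 lies, Golt1b was the only member gene, with 1044 protein-coding genes between them.

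**Figure D4:**
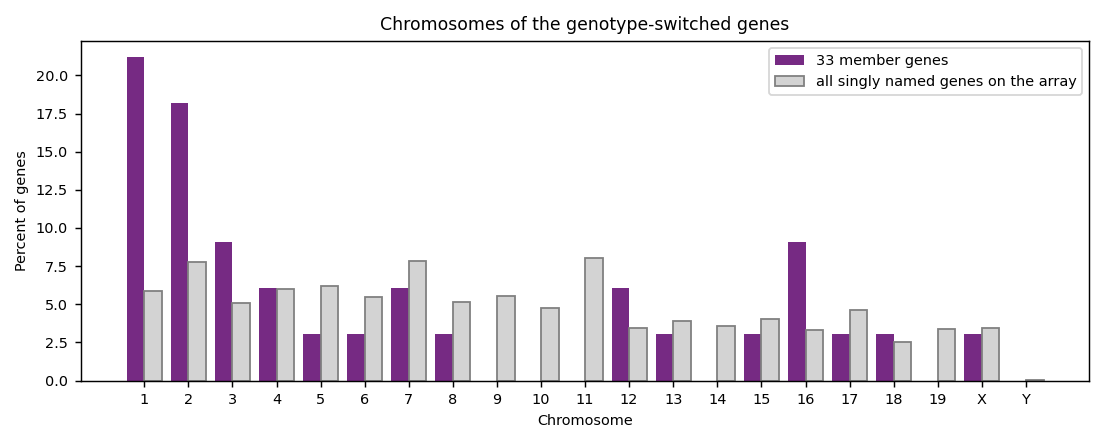
Percent of the 33 member genes (bars) on each chromosome beside the percent of all 18032 singly named genes on the array. Chromosome 1 holds 21.2% of the member genes and 5.86% of the array's, and chromosome 11 holds 0 of the member genes.

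The rule does not compare CLP with sham, but it is not blind to surgery. Its lowest and highest signals are taken over all 6 arrays of a genotype, CLP and sham together. A large response to surgery in either genotype makes the rule harder to meet, so members were partly chosen for a small one. CLP against sham was fitted with limma over all 24574 measured probe sets, with Benjamini-Hochberg adjustment across them. The response sizes of the members and their shares beside all measured probe sets are therefore a description. All 53 members passed the filter for measured probe sets, as the floor of 100 in one genotype had secured. In knockout-labelled lungs 11 of the 53 members were called for CLP against sham at an adjusted p under 0.05 (20.8%), against 29.2% of all measured probe sets. Of the 11, 7 had a positive (63.6%) and 4 a negative difference, and 35.6% of all called probe sets were positive. Of all measured probe sets 10.4% were called with a positive and 18.8% with a negative difference. These balances depend on the scaling of the arrays, as given below. Only the 20 members higher in knockout-labelled lungs are read there at their high level, and 6 of these were called. The 33 others entered through their wild-type signal, and 14 of them lay at or below the array median on all 6 knockout-labelled arrays, so the share of the 53 is a description. In wild-type lungs 0 of 53 changed by limma at an adjusted p under 0.05, against 0.948% of all (0.814% up and 0.134% down), and 2 had an unadjusted p under 0.05. For each probe set limma used a spread shared by the 4 groups, so the standard error was the same in both genotypes. Members where high deviated from their group by a median of 0.19 to 0.38 on knockout-labelled and 0.07 to 0.11 on wild-type arrays. The number of calls in one genotype is thus not set against that in the other. The median size of the response was 0.38 on the log2 scale in knockout-labelled and 0.11 in wild-type lungs, and the size was under 1 for 48 and 52 of the 53.

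**Figure D5:**
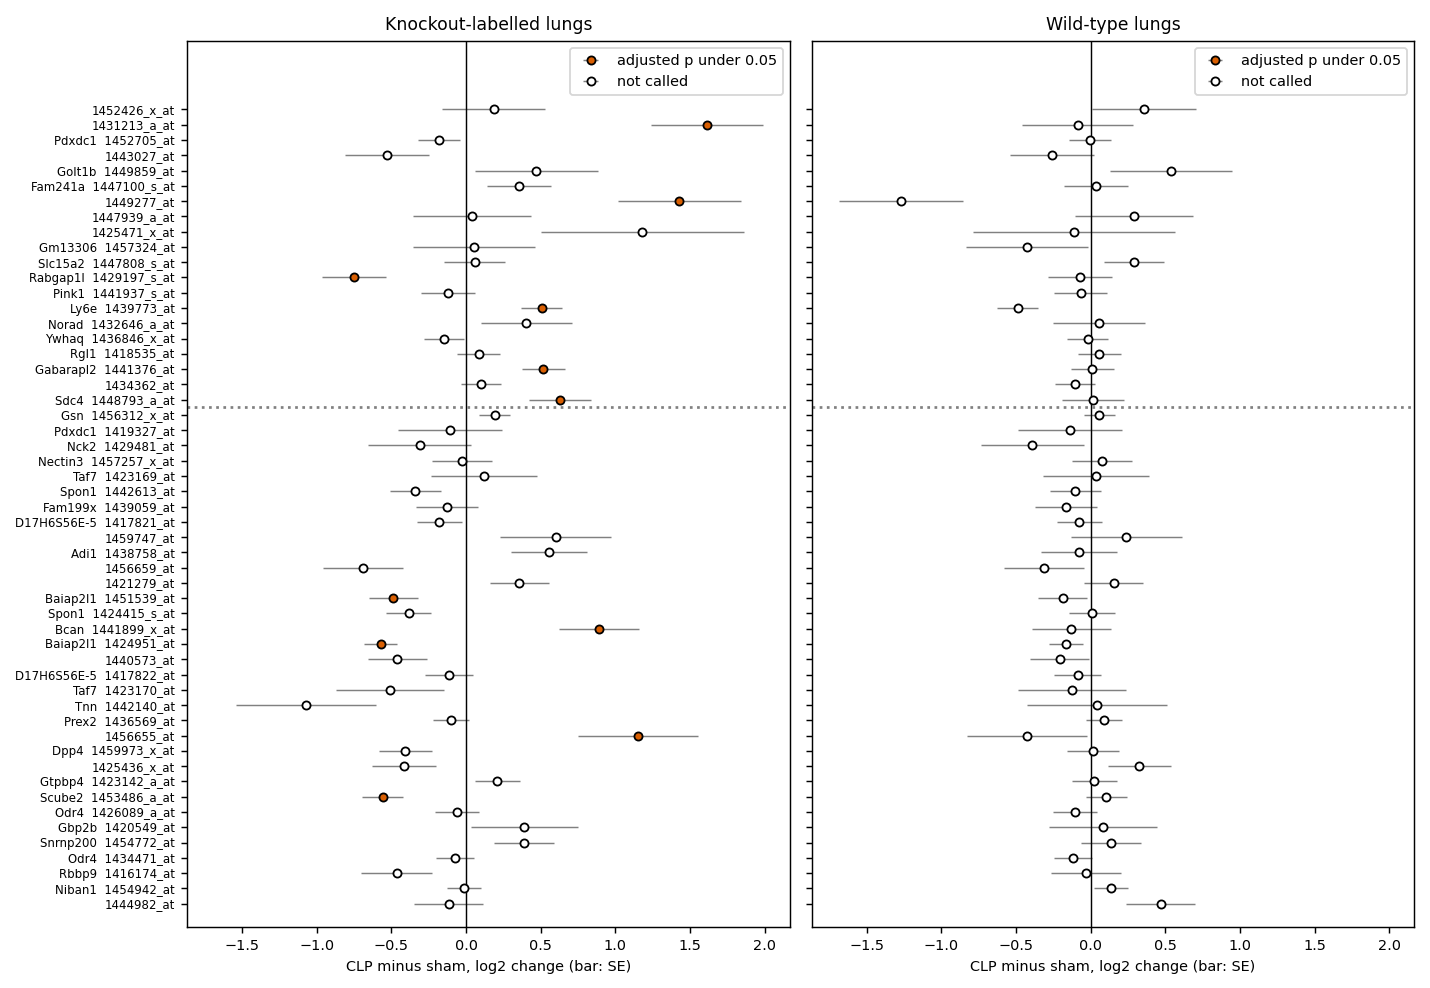
CLP minus sham for each member, in log2(signal + 3.47), with the standard error, in knockout-labelled lungs on the left and wild-type lungs on the right (3 arrays per group). The standard error rests on a spread shared by the 4 groups and is the same in both panels. The dotted line divides members higher in knockout-labelled lungs, above, from those higher in wild-type lungs, below, and orange marks an adjusted p under 0.05: 11 members on the left and 0 on the right.

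Among the 20 members higher in knockout-labelled lungs, 6 changed there, where their signal is high. The unnamed 1431213_a_at rose by 1.61 ± 0.37 (SE; adjusted p = 0.0073, limma), with all 3 CLP arrays above all 3 sham arrays. In wild-type lungs its difference was -0.09. The call held without each of the 12 arrays in turn.
Ly6e 1439773_at rose by 0.51 ± 0.14 in knockout-labelled lungs (adjusted p = 0.016, limma), a call lost without CLP array 3 of that genotype (adjusted p = 0.055). In wild-type lungs its difference was -0.49 ± 0.14 (adjusted p = 0.17, limma). The responses differed between the genotypes by 0.99 ± 0.19 (interaction, adjusted p = 0.022, limma). The brighter probe set of the gene, 1453304_s_at, is no member.
Gabarapl2 rose by 0.52 ± 0.15 (adjusted p = 0.019, limma), with CLP signals of 165 to 205 against sham signals of 122 to 140.2 in knockout-labelled lungs. The call was lost without CLP array 1 or 2 (adjusted p = 0.052 and 0.068). Sdc4 rose by 0.63 ± 0.21 (adjusted p = 0.039, limma), but of 12 runs that left out 1 array the call held in 2, those without CLP array 1 or sham array 2 of that genotype, with an adjusted p of 0.16 without CLP array 2. In wild-type lungs the differences were 0.01 for Gabarapl2 and 0.02 for Sdc4.
Rabgap1l fell by 0.75 ± 0.21 (adjusted p = 0.020, limma), to 129 to 161 after CLP against 204 to 276 after sham. The call was lost without CLP array 1 or 2 or sham array 2 of knockout-labelled lungs (adjusted p of 0.052, 0.060 and 0.064) and with arrays centred on their medians (0.089).
The probe set 1449277_at, annotated with several symbols, read 319, 541 and 673 in knockout-labelled CLP and 185, 159 and 196 in knockout-labelled sham, compared with 21.4, 7.24 and 2.79 in wild-type CLP and 18.9, 33.9 and 24.6 in wild-type sham. It rose by 1.43 ± 0.41 in knockout-labelled lungs (adjusted p = 0.022, limma). That call held in 9 of 12 runs that left out 1 array, with a highest adjusted p of 0.078 without CLP array 3 of that genotype. The difference of -1.27 ± 0.41 in wild-type lungs (adjusted p = 0.28, limma) was measured near the floor. The interaction was 2.70 ± 0.58 (adjusted p = 0.030, limma).
Both interactions were fragile to single arrays. Ly6e passed in 6 of the 12 runs that left out 1 array, and was lost without any wild-type sham array, without wild-type CLP array 1 or 2, or without knockout-labelled CLP array 2, with a highest adjusted p of 0.060. The probe set 1449277_at passed in 3 of 12, those without array 1 of knockout-labelled CLP, array 3 of knockout-labelled sham or array 1 of wild-type CLP, with a highest adjusted p of 0.087. These 2 members (3.77% of 53) stand beside 4.05% of all measured probe sets called for the interaction (1.69% positive and 2.36% negative), and 10 members had an unadjusted p under 0.05.

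Among the 33 members higher in wild-type lungs, the 5 calls in knockout-labelled lungs came where their signal is low. Baiap2l1 fell on both probe sets, by 0.57 ± 0.11 on 1424951_at (adjusted p = 0.0029, limma) and by 0.49 ± 0.16 on 1451539_at (adjusted p = 0.041, limma). The first call held without each array in turn. The second held in 2 of 12 such runs, those without CLP array 1 or sham array 3 of knockout-labelled lungs (adjusted p = 0.16 without CLP array 2). In wild-type lungs the differences were -0.16 and -0.19, neither called.
Averaged over the genotypes, Baiap2l1 1424951_at fell by 0.37 ± 0.08 (adjusted p = 0.0074, limma) and was the only 1 of 53 members called, against 20.0% of all measured probe sets (7.36% up and 12.7% down). With arrays centred on their medians the adjusted p was 0.081. By unadjusted p under 0.05, 9 members passed. The average also reads each member in its low genotype, where 22 of the 53 were at or below the array median on all 6 arrays. The 1 of 53 beside the 20.0% is therefore a description.
Scube2 fell by 0.56 ± 0.14 in knockout-labelled lungs (adjusted p = 0.0099, limma), with 103 to 146 after CLP against 154 to 201 after sham, and differed by 0.10 in wild-type lungs. The call held without each array in turn, and with arrays centred on their medians the adjusted p was 0.080.
Bcan (0.89 ± 0.27, adjusted p = 0.025, limma) and the unnamed 1456655_at (1.15 ± 0.40, adjusted p = 0.047, limma) were called on signals of 28.6 or less, below the median of every array, and no response is read from them. The Bcan call was lost without CLP array 2 or sham array 3 of knockout-labelled lungs (adjusted p of 0.10 and 0.059), and that of 1456655_at held in 1 of 12 runs, the one without CLP array 1 (adjusted p = 0.17 without CLP array 3).
Among the members not called in knockout-labelled lungs, the unnamed 1425471_x_at (1.18, adjusted p = 0.21, limma) and Tnn (-1.07, adjusted p = 0.10, limma) had the differences of largest size.

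How many rose and how many fell depended on the scaling of the arrays. As deposited, with array medians of 31.1 to 33.2 in knockout-labelled CLP against 37.7 to 38.4 in knockout-labelled sham, 35.6% of all called probe sets rose, and 70.4% rose once each array was centred on its median. The median response of all measured probe sets was -0.12 as deposited and 0.10 after centring. For the members 7 of 11 calls were positive as deposited, 10 of 13 after quantile normalisation and 11 of 12 after centring. The calls lost under centring were all falls, and no called value turned its sign. Averaged over genotype, the calls were 0 rises and 1 fall as deposited, and 5 rises and 0 falls after centring. Without array 3 of knockout-labelled sham, the array that stood apart, 12 members were called in knockout-labelled lungs, 8 of them among the 11. That run called 35.7% of all measured probe sets.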

How the data were processed

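Whole-lung RNA of 12 mouse samples was measured on 1 array each. The deposited values are linear intensity signals per probe set. The software named per the submitters' processing notes is GCOS, MAS5 and Affymetrix Expression Console, without versions here. On every array the mean without the top and bottom 2% is 150.001, so each array carries a global scaling. Of 45101 probe sets 64 controls were left out. Signals were tested as log2(signal + 3.47), a pseudocount of 10% of the median of the array medians, for the 24574 probe sets that exceed the array median on 3 or more of 12 arrays. limma 3.58.1 (R 4.3.3) was fitted with 4 group means, trended moderation and Benjamini-Hochberg adjustment over all of them, and was tested on simulated data. Group comes from the labels. Genes were named from the platform annotation, with current symbols, chromosomes, gene order and promoters from RefSeq's tables.

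Named genes were, in each direction, the 12 singly named genes with the widest gap, those called for CLP where high or in the average or interaction, those with a fellow family member, the 12 whose probe sets disagree most, those near another member or on a fixed list, and the 3 on either side of the threshold. The members and all lists were chosen with earlier results of these data known. Alternatives were quantile normalisation, median centring, a larger pseudocount, other filters, untrended moderation, array weights, a replicate block, other folds and floors in the rule, and each array left out. Arrays give no read depth, and their number (3 per group) limits the precision.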

Additional observations from a re-analysis of the deposited data

Results flagged for a closer look

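By the interaction term of limma, the response to CLP differed between the genotypes for 2 of 53 members (3.77%), against 4.05% of all measured probe sets. The members were partly chosen for a small response to surgery, so these shares side by side are a description. Ly6e 1439773_at rose by 0.51 in knockout-labelled lungs and differed by -0.49 in wild-type lungs, an interaction of 0.99 ± 0.19 (SE; adjusted p = 0.022). The probe set 1449277_at, annotated with several symbols, rose by 1.43 in knockout-labelled lungs and differed by -1.27 in wild-type lungs, an interaction of 2.70 ± 0.58 (adjusted p = 0.030). Neither wild-type difference was called, and the wild-type signals of 1449277_at (2.79 to 33.9) lie near the floor. Leaving out 1 array in turn, the call for Ly6e held in 6 of 12 runs and that for 1449277_at in 3 of 12.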

How the results depend on the processing

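Asking a fold of 2 in place of 3 gave 45 probe sets higher in knockout-labelled and 56 higher in wild-type lungs, a fold of 5 gave 5 and 18, and a floor of 200 gave 12 and 19. A floor of 50 gave 35 higher in knockout-labelled lungs, and leaving out suffixes _x_at and _s_at gave 13. Quantile normalisation kept 19 of the 20 and 32 of the 33, and scaling to the same median kept 17 and 31. Leaving out 1 array gave 20 to 25 and 33 to 40. As the rule reads the lowest and highest signals, leaving out an array can only keep or add members. All 53 genotype differences kept their sign in every run, and 32 moved beyond their spread with a pseudocount of 50% of the median. For left-out arrays and the larger pseudocount the sign could not change, because the rule had chosen members whose arrays do not overlap between genotypes. Those runs are therefore no test of the sign.

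Of CLP calls in knockout-labelled lungs, 11 as reported, the filter of 9 arrays gave 6 (3 where the signal is high), array weights gave 20, and leaving out 1 array 4 to 14 (2 to 7 where high). In wild-type lungs array weights gave 1, and leaving out 1 array 0 to 0 in all members and where high. Averaged over genotype, where the 1 call as reported is a fall, quantile normalisation gave 2 (1 rise, 1 fall), centring 5 (all rises, without the fall), the pseudocount of 50% gave 2, array weights 12, and leaving out 1 array 1 to 6. For the interaction the filter of 9 arrays gave 1, array weights 11, and leaving out 1 array 0 to 5. The filter of 9 arrays tests fewer members, 27 of 53. The cause of the other shifts was not tested. No single named value turned its sign, while the balance of rises and falls turned with the scaling.

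The labels' replicate numbers did not pair the samples: deviations of same-numbered samples correlated at -0.104 to 0.119 over 18 pairs, and of others at -0.136 to 0.153 over 36. With the replicate number as a block, 10 of 53 were called in knockout-labelled lungs, 6 where high, 0 in wild-type lungs, 3 in the average and 2 for the interaction.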
